A study of Mus musculus with 12 samples.

Results

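The transcripts described here encode 10 enzymes of red cell sugar metabolism: hexokinase (Hk1, Hk2), phosphofructokinase (Pfkm, Pfkl), aldolase A (Aldoa), bisphosphoglycerate mutase (Bpgm), phosphoglycerate mutase (Pgam1), pyruvate kinase (Pklr, Pkm) and lactate dehydrogenase A (Ldha). They were chosen by gene symbol and are 10 of the 29838 genes in the table. Aldoa is given to a pair of Ensembl identifiers, so the 10 symbols fill 11 lines. Erythroblasts were sorted from the bone marrow of wild-type C57BL/6 male mice of 8 weeks, with cells carrying CD45, CD11b or GR1 left out of the gate. The study followed terminal erythroid differentiation from proerythroblasts (Pro) to basophilic (Baso), polychromatic (Poly) and orthochromatic (Ortho) erythroblasts. Each of the 4 stages had 3 RNA-seq libraries, all without treatment or genetic change, and the labels do not say whether these came from separate mice, so that p-values measure the spread between samples. Values are FPKM, in which each gene's fragments are divided by its length and by the size of the library. Levels of different genes can therefore be set side by side.

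Glycolysis splits glucose into pyruvate and yields ATP, and it is the only source of ATP once the red cell has lost its mitochondria. Hexokinase and phosphofructokinase set the pace of its upper part and pyruvate kinase that of its last step, and each of these steps is shared by isozymes from separate genes. In red cells part of the flow leaves through the Rapoport-Luebering shunt, where bisphosphoglycerate mutase makes 2,3-bisphosphoglycerate (2,3-BPG), the small molecule that lowers the affinity of hemoglobin for oxygen.

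From Pro to Ortho, Bpgm rose 16.2-fold while the red cell pyruvate kinase gene Pklr fell by 32.2-fold and the muscle-type phosphofructokinase gene Pfkm by 16.7-fold. Hk1 fell by 2.99-fold and Pfkl by 2.20-fold. Pkm, Pgam1 and Hk2 rose by 1.78-fold, 1.93-fold and 1.73-fold. Ldha was lower in all later stages than in Pro, and Aldoa was past the threshold in no comparison with Pro as deposited. A gene was past the threshold when its adjusted p in limma, fitted over all 12994 genes with enough signal, was under 0.05, and a stricter count also asked for a 2-fold change on the log2(FPKM + 1) scale of that fit, whereas the folds just given are ratios of mean FPKM. All 10 enzymes had enough signal to be tested. In Ortho against Pro, 9 of 10 enzymes were past the threshold, where 75.9% of all genes tested were. Of these 4 were higher and 5 lower, where 22.7% and 53.2% of all genes were. Without hemoglobin genes the same counts were 5 and 4, and 34.3% and 34.8% of all genes. A 2-fold change was also met by Bpgm, Pklr, Pfkm, Hk1 and Pfkl, 5 of 10 where 30.1% of all genes met it. A share of 9 in 10 stands near that of all genes, so the count itself is no feature of these enzymes, and the values below describe sizes and the balance within each enzyme step. The median log2 fold change of the enzymes was -0.18 in Ortho against Pro, and that of all genes -0.42.

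**Figure D1:**
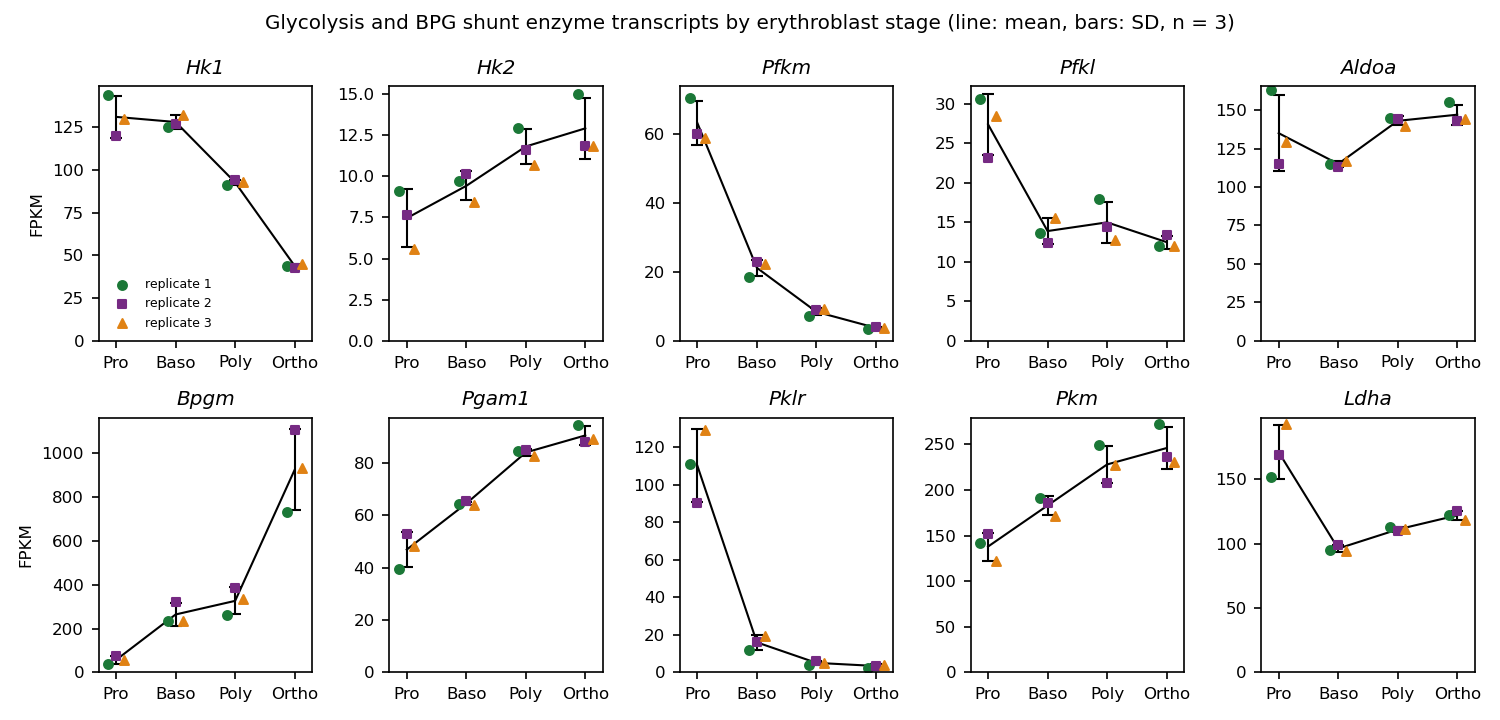
FPKM of each of the 10 enzyme genes (vertical axis, starting at 0) in Pro, Baso, Poly and Ortho. Points are single libraries with a symbol for each replicate number, the line joins the means of 3 libraries and bars are SD. Pklr fell at the first and the second step, Pfkm at every step, Bpgm rose at the first and the last step, and Aldoa stayed between 113 and 163 FPKM.

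No library stood apart, and those of 1 stage correlated at 0.973 to 0.984 over log2(FPKM + 1) of the genes tested. FPKM summed to 505624 to 691033 per library, and 11964 to 12297 genes reached 1 FPKM. Since whole fragments could not be recovered from these values, sequencing depth is unknown. The 12 erythroid markers were all present in every stage. Hemoglobin transcripts took 6.98 to 10.7% of the summed FPKM of a Pro library, 33.2 to 36.7% at Baso, 34.8 to 37.6% at Poly and 47.2 to 52.6% at Ortho, which lowers the FPKM of all other genes in the later stages. Directions were therefore also read after rescaling each library to the same sum, after leaving out hemoglobin genes, and after centring on the median, under which the median of all genes in Ortho against Pro moved from -0.42 to -0.72, -0.03 and -0.03. Markers of other marrow cells were present too. The 10 neutrophil markers summed to between 7350.4 and 9159.7 FPKM in Pro libraries and 12623 and 14743 at Baso. They summed to between 16199 and 19185 at Poly and 14440.3 and 17855 at Ortho. Of these markers 9 of 10 were higher in Ortho than in Pro and none was at 0. The gate was set to leave out cells with CD11b or GR1, which neutrophils are known to carry. Whether such cells remained in the sorted samples was not tested. The 8 B cell markers, all higher, went from 147 to 242 FPKM in Pro to 458 to 469.7 in Ortho. Of the macrophage list 4 of 8 could be tested and 3 were higher (summed 29.3 to 35.2 FPKM in Pro and 62.3 to 73.9 in Ortho). From Pro to Ortho the means went from 3.84 to 7.85 FPKM for Adgre1 and 11.7 to 26.4 for Csf1r. Those of Cd68 went from 12.3 to 29.1 and those of Vcam1 from 3.03 to 2.25. C1qa, C1qb, C1qc and Mrc1 were under 1 FPKM in the mean of every stage. Of the T and NK cell list all 3 that could be tested were higher. Its most abundant gene, Nkg7, had means of 23.6 FPKM in Pro and 35.1 in Ortho. Cd3e was at 0 in every Pro and Ortho library. Of 5 megakaryocyte markers tested, 4 were lower and 1 higher. In such bulk samples, fewer cells of a type and less RNA per cell cannot be told apart.

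The 3 genes with the largest changes, chosen after their values were seen, are shown with the bases before their transcription starts. Whether these bases have a part in the changes was not tested. The sequences are RefSeq's promoters for GRCm38.p6, whose coordinates are those of mm10, and capitals mark matches on either strand to CACCC (the core bound by KLF1), GATAA (the core bound by GATA1) and ACGTG (a core bound by HIF and by E-box factors). In Pklr the upstream of a pair of starts is shown, known as that of the erythroid R-type enzyme. It lies on the plus strand at chr3:89135892-89136141, outside any GENCODE gene. The Pfkm window is that of its first start (plus strand, chr15:98092339-98092588) and lies in an intron of Senp1, which is on the opposite strand. For Bpgm the 101 bases before its first exon are shown (plus strand, chr6:34476106-34476206).
Pklr: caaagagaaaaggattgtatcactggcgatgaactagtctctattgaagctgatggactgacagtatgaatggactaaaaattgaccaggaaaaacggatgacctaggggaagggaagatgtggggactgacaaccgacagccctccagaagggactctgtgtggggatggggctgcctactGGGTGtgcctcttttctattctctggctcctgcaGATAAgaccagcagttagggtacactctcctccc
Pfkm: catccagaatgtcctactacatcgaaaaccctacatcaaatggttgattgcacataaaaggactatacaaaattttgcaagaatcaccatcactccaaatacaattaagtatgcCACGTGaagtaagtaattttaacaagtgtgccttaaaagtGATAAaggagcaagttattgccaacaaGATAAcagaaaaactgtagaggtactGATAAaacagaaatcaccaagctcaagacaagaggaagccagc
Bpgm: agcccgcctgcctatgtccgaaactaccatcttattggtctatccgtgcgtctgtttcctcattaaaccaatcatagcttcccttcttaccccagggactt
The Pklr window held 1 CACCC match, written GGGTG, and 1 GATAA match. The Pfkm window held 3 GATAA matches and 1 CACGTG, which counts as 2 ACGTG matches because it reads alike on both strands. The full 250 bases before the Bpgm start held none of the 3 motifs. Of all 32851 RefSeq promoters read over the same 250 bases, 52.0% held CACCC, 22.6% GATAA, 16.6% ACGTG and 29.5% none of them. At least 3 GATAA matches, as in the Pfkm window, were in 0.712% of all promoters, a share read after the window was seen. That share takes no account of base makeup, and G and C made up only 36.4% of this window. The 250 bases before the other listed Pfkm starts held 2, 1 and 0 GATAA matches. FPKM do not tell which start was used.

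Hexokinase phosphorylates glucose as it enters the cell. Hk1 (chr10:62268855-62379908, minus strand), the isozyme known for mature red cells, stood at 144, 119.8 and 129.9 FPKM in the Pro libraries and 125, 127 and 132 in Baso, then at 91.2, 94.0 and 93.0 in Poly and 43.9, 42.8 and 44.9 in Ortho. Pro and Baso overlapped, while every Poly library lay below both and every Ortho library below Poly. The log2 fold change in Ortho against Pro was -1.56 (SE 0.07, limma adjusted p = 9.83e-09) and lay between -1.92 and -1.07 under the other scalings. Between Baso and Pro it was -0.03 (SE 0.07, adjusted p = 0.727) as deposited, and it turned to 0.28 without hemoglobin genes (adjusted p = 0.00704) and to 0.27 when centred, both past the threshold, while with equal sums it was -0.21 (adjusted p = 0.0488). In Poly against Pro the fall of -0.49 became -0.15 without hemoglobin genes (adjusted p = 0.101). Hk1 shares part of its length with an antisense transcript, Hk1os, at a mean of 1.76 FPKM.

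Hk2, the inducible and insulin-responsive isozyme, was scarce, at 9.11, 7.67 and 5.58 FPKM in Pro, 9.70, 10.1 and 8.42 in Baso, 12.9, 11.6 and 10.7 in Poly and 15.0, 11.8 and 11.8 in Ortho. All Poly and Ortho libraries were above all Pro libraries, and the rise was 0.73 on the log2 scale in Ortho (SE 0.15, limma adjusted p = 0.000984). Within each library the Hk1 to Hk2 ratio, which no scaling can move, went from 15.6 to 23.3 in Pro down to 2.92 to 3.80 in Ortho (exact permutation test of the F statistic over 15400 divisions of the libraries, p = 0.00013, adjusted over 4 ratios 0.000173). Hk3, a hexokinase known from myeloid cells and named here after its values were seen, was more abundant than Hk2 in every stage. It was at 38.1 ± 2.42 FPKM in Pro and 57.5 ± 3.95 in Ortho (SD, n = 3). Of the FPKM of the 3 hexokinase genes together, Hk1 held 74.2% ± 1.80 in Pro and 38.4% ± 1.86 in Ortho, and Hk3 21.6% ± 1.26 and 50.3% ± 0.822. In Baso, Poly and Ortho the summed neutrophil markers were 1.66-fold, 2.18-fold and 2.00-fold above Pro. Over the same stages Hk2 was 1.26-fold, 1.58-fold and 1.73-fold above Pro, and Hk3 1.31-fold, 1.64-fold and 1.51-fold. Whether neutrophils, which the gate was set to leave out, had a part in the result was not tested.

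Phosphofructokinase commits the sugar to glycolysis, and red cells are known to build it from muscle-type and liver-type subunits. Pfkm, the muscle type (chr15:98092589-98132451, plus strand), was at 70.6, 60.1 and 58.8 FPKM in Pro, 18.6, 22.8 and 22.3 in Baso, 7.34, 8.84 and 9.14 in Poly and 3.60, 3.96 and 3.78 in Ortho. Each stage lay wholly below the one before. The log2 fold change was -1.53 at the first step, -1.24 at the second and -0.98 at the third (SE 0.11 each), and the limma adjusted p was 0.000185 or lower in each. Its promoter window, with the GATAA matches, is printed above. The gene overlaps Senp1, on the other strand at a mean of 19.6 FPKM, and the strand setting of the counting is not given in the sources used here, so that reads of the shared 1156 bases cannot be told apart.

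Pfkl, the liver type, fell at the first step and passed the threshold at neither later one. The Pro libraries were at 30.6, 23.1 and 28.5 FPKM, the Baso libraries at 13.7, 12.4 and 15.6, the Poly libraries at 17.9, 14.4 and 12.8 and the Ortho libraries at 12.005, 13.4 and 11.98. The 3 later stages overlapped each other and lay below Pro. In Baso against Pro the log2 fold change was -0.93 (SE 0.13, limma adjusted p = 0.00014), and in Ortho against Poly -0.24 (SE 0.13, adjusted p = 0.244). From Pro to Ortho it was -1.07 as deposited and -0.60 without hemoglobin genes. The Pfkl to Pfkm ratio thus turned over, from 0.384 to 0.485 in Pro to 3.17 to 3.39 in Ortho (exact permutation p = 6.49e-05, the smallest that 15400 divisions can give, adjusted 0.000173). The sum of the pair dropped stage by stage, with means of 90.6 ± 9.45, 35.2 ± 2.77, 23.5 ± 1.63 and 16.3 ± 0.995 FPKM (SD, n = 3) from Pro through to Ortho. Pfkp, the platelet type and also named after its values were seen, was at 9.50 ± 1.49 FPKM in Pro and 17.9 ± 0.896 in Ortho, and its share of the 3 phosphofructokinase genes went from 9.60% ± 2.17 to 52.4% ± 2.63.

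**Figure D2:**
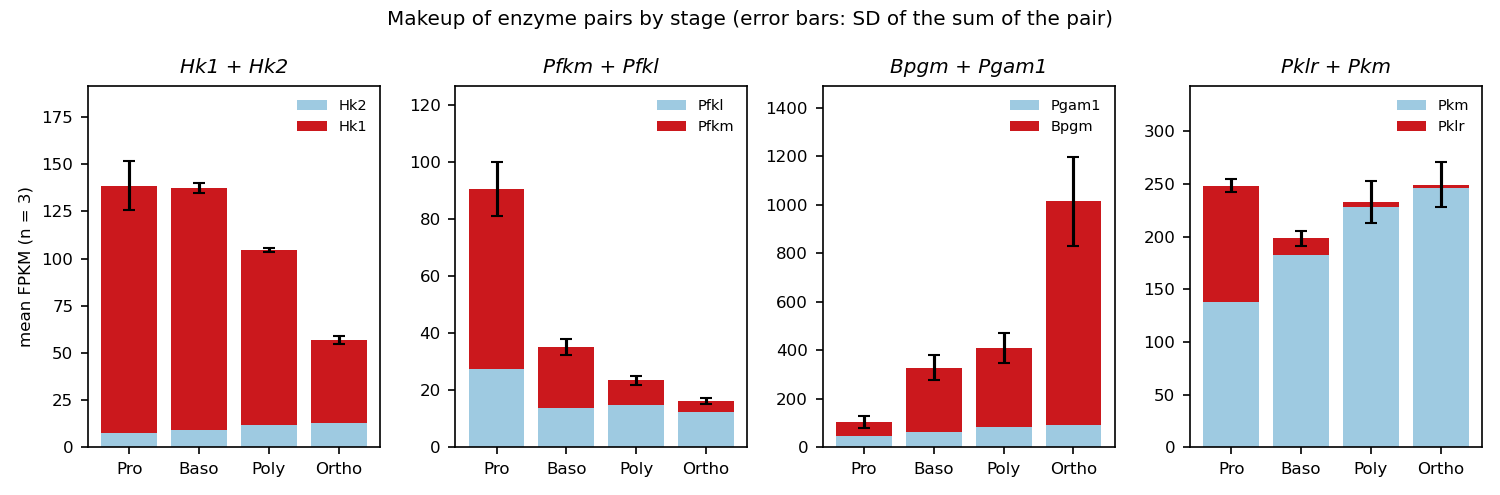
Stacked mean FPKM of enzyme pairs (vertical axis from 0) by stage, n = 3 libraries; error bars are the SD of the sum of the pair. Pfkm shrank until Pfkl held 76.7% of the pair in Ortho, and Bpgm grew to 90.8% of Bpgm plus Pgam1. The Pklr share shrank from 44.2% to 1.39%. Stage means of the sum of Pklr and Pkm lay between 199 and 249.6 FPKM as deposited, and such sums depend on the scaling.

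Aldolase A cleaves fructose 1,6-bisphosphate. Aldoa (ENSMUSG00000030695, chr7:126795234-126800751, minus strand) was at 163, 115 and 129 FPKM in Pro, 115, 113 and 117 in Baso, 145, 144 and 139.8 in Poly and 155, 143 and 144 in Ortho. The Pro libraries overlapped those of every other stage. Over all stages the limma F test gave an adjusted p of 0.0331, and no comparison with Pro was past the threshold as deposited. Direction and call depended on the scaling, since the log2 fold change in Ortho against Pro was 0.13 (SE 0.10) as deposited, -0.23 with equal sums (limma adjusted p = 0.094), 0.62 without hemoglobin genes (adjusted p = 0.000295) and 0.53 when centred (adjusted p = 0.000559). Poly against Pro also passed the threshold in these last 2 settings (0.44 and 0.34), and Baso against Pro with equal sums (-0.40, adjusted p = 0.0126). The call in Ortho depended on 1 library too, since without Pro replicate 1 the value was 0.28 (adjusted p = 0.00332). A further gene model of the same symbol, ENSMUSG00000114515, lies just upstream on the same strand (chr7:126800790-126809108). Its mean fell from 3.40 ± 1.20 FPKM in Pro to 1.12 ± 0.276 in Ortho (SD, n = 3; log2 fold change -1.03, SE 0.24, limma adjusted p = 0.00225).

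Bisphosphoglycerate mutase makes 2,3-BPG from 1,3-bisphosphoglycerate. Bpgm (chr6:34476207-34505613, plus strand), whose upstream bases are printed above, was at 39.8, 73.5 and 57.7 FPKM in Pro, 235, 322 and 234 in Baso, 261, 383 and 334 in Poly and 733, 1103 and 932 in Ortho. The rise came in a pair of jumps, between Pro and Baso and between Poly and Ortho, and Baso and Poly overlapped. Its mean was above 88.8% of the tested genes in Pro and above 99.7% in Ortho. The log2 fold change was 2.22 at the first step (SE 0.23, limma adjusted p = 1.38e-05), 0.31 at the second (adjusted p = 0.41) and 1.49 at the third (adjusted p = 0.000387). The change from Pro to Ortho was 4.02 as deposited and 3.65 to 4.50 under the other scalings. Replicate 2 was the highest library in each of the 4 stages.

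The next enzyme of the main path, phosphoglycerate mutase, converts 3-phosphoglycerate to 2-phosphoglycerate. Pgam1 was at 39.6, 52.9 and 48.4 FPKM in Pro, 64.4, 65.3 and 63.9 in Baso, 84.5, 84.9 and 82.6 in Poly and 94.6, 88.0 and 89.0 in Ortho. Each stage lay wholly above the one before, with a log2 fold change of 0.94 from Pro to Ortho (SE 0.09, limma adjusted p = 2.17e-06). Summed neutrophil markers were 1.66-fold, 2.18-fold and 2.00-fold above Pro in Baso, Poly and Ortho, and Pgam1 1.37-fold, 1.79-fold and 1.93-fold. Whether neutrophils, which the CD11b and GR1 gate was set to leave out, add to Pgam1 was not tested. A processed copy, Pgam1-ps2, was listed at a mean of 16.0 FPKM, so reads may be split between the copies and the Pgam1 level is uncertain. The ratio of Bpgm to Pgam1 was 1.01 to 1.39 in Pro and 3.65 to 4.93 in Baso, was 3.09 to 4.51 by Poly, and reached 7.75 to 12.5 in Ortho (exact permutation p = 0.000584, adjusted 0.000584).

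Minpp1 encodes a phosphatase of inositol phosphates that is also known to remove phosphate from 2,3-BPG, and was in a list of neighbouring genes. The Pro libraries held 222, 198 and 218 FPKM, the Baso libraries 68.7, 88.9 and 90.0, the Poly libraries 30.7, 31.8 and 33.9 and the Ortho libraries 16.1, 16.8 and 17.1. Each stage lay below the one before, and the fall from Pro to Ortho was 12.8-fold (log2 fold change -3.60, SE 0.10, limma adjusted p = 1.16e-09, and -3.96 to -3.12 under the other scalings). Bpgm over Minpp1, a ratio formed after the values were seen and given without a test, was 0.179, 0.37 and 0.264 in the Pro libraries and 45.7, 65.6 and 54.6 in the Ortho libraries.

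**Figure D3:**
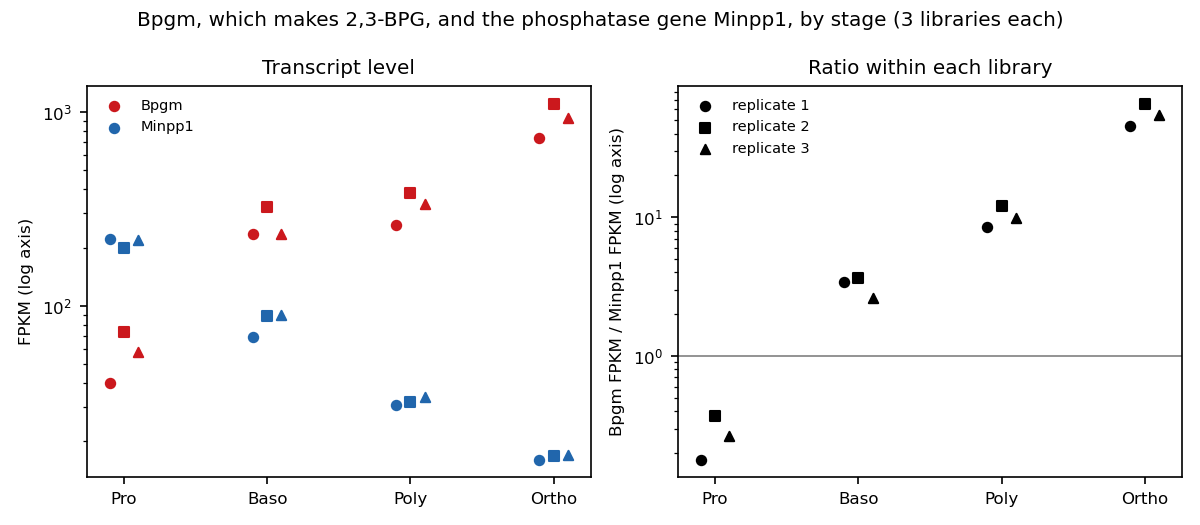
Left, FPKM of Bpgm and Minpp1 in each library (log axis) by stage; right, their ratio within each library (log axis), with a line at 1. Minpp1 was the higher of the pair in all Pro libraries and the lower in all libraries of the later stages.

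Pyruvate kinase makes pyruvate and ATP in the last step of glycolysis. Pklr (chr3:89136142-89146784, plus strand) encodes the red cell and liver enzymes. It was at 111, 90.1 and 129 FPKM in Pro, 11.96, 16.4 and 19.5 in Baso, 4.18, 6.12 and 4.97 in Poly and 2.51, 3.55 and 4.19 in Ortho. Pro, Baso and Poly did not overlap, and Ortho reached just above the lowest Poly library. The log2 fold change was -2.72 at the first step (SE 0.20, limma adjusted p = 2.29e-06) and -1.46 at the second (adjusted p = 0.00217). From Pro to Ortho it was -4.65 as deposited and -4.98 to -4.21 under the other scalings. These fold changes are on the log2(FPKM + 1) scale, which understates the change of a gene as low as Pklr in Ortho.

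Pkm, whose product is the isozyme of most other tissues, moved the other way. Its libraries were at 142, 152 and 122 FPKM in Pro, 191, 186 and 171 in Baso, 249, 208 and 227 in Poly and 272, 236 and 230.4 in Ortho. All later libraries lay above Pro, and Poly and Ortho overlapped. Against Pro the log2 fold change was 0.40 at Baso, 0.72 at Poly and 0.83 at Ortho (SE 0.10 each, limma adjusted p = 0.00586, 9.1e-05 and 1.81e-05). With equal sums the first of these was 0.22 and missed the threshold (adjusted p = 0.104). In Ortho against Pro Pkm was at 0.46 with equal sums, 1.32 without hemoglobin genes and 1.23 when centred. The sums that follow therefore hold only for values as deposited. Pklr and Pkm together held 248 ± 5.84 FPKM at the Pro stage, then 199 ± 6.98, 233 ± 19.8 and, at the last stage, 249.6 ± 22.1 (SD, n = 3). The Pklr share of this sum went from 44.2% ± 7.10 to 8.08% ± 2.17, 2.22% ± 0.61 and 1.39% ± 0.443 over the same stages. Pkm over Pklr was 0.943 to 1.68 in Pro and 55.0 to 109 in Ortho (exact permutation test of the ratio, p = 0.00013, adjusted 0.000173). Neutrophils are known to hold the Pkm product, and the fold of Pkm from Pro to Ortho, 1.78, stood beside 2.00 for the summed neutrophil and 2.52 for the summed B cell markers. The part of these cells, which the gate was set to leave out, in the rise was not tested. Pkm overlaps Gm49759 on the same strand (mean 5.18 FPKM). FPKM per gene do not tell its M1 and M2 splice forms apart.

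Lactate dehydrogenase A turns pyruvate to lactate and so restores NAD+. Ldha was at 152, 169 and 193 FPKM in Pro, 95.3, 98.9 and 94.3 in Baso, 113, 109.8 and 111 in Poly and 122, 125 and 118 in Ortho. It was lowest in Baso and the later stages stayed below every Pro library. Against Pro the log2 fold change was -0.82 at Baso, -0.61 at Poly and -0.49 at Ortho (SE 0.08 each, limma adjusted p = 9.66e-06, 5e-05 and 0.000182). In Ortho it was 0.00 without hemoglobin genes (adjusted p = 0.973) and -0.09 when centred (adjusted p = 0.341), neither past the threshold, and the median of all genes was -0.03 in both settings. As deposited, the -0.49 of Ldha stood beside a median of -0.42.

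Read step by step, Pklr and Pfkm had their largest falls first and Bpgm rose at the first and the last step. Between Pro and Baso, 7 of 10 enzymes were past the threshold, against 57.0% of all genes. There 3 were higher and 4 lower, against 14.9% and 42.1% of all genes, and Bpgm, Pklr and Pfkm also changed 2-fold, as did 10.4% of all genes. In Poly against Pro 9 were past it (66.1% of all genes), 4 of them higher and 5 lower (23.3% and 42.7% of all genes), and 3 changed 2-fold (16.4%). Between Baso and Poly, Pgam1 rose and Hk1, Pklr and Pfkm fell, 4 of 10 where 12.4% of all genes were past the threshold, 6.58% higher and 5.77% lower. Pklr and Pfkm also changed 2-fold at this step, where 0.516% of all genes did. Between Poly and Ortho, Bpgm rose and Hk1 and Pfkm fell, 3 of 10 where 26.1% of all genes were past the threshold, 4.43% higher and 21.7% lower. Bpgm and Hk1 changed 2-fold there, as did 5.86% of all genes. Pfkm just missed that count at -0.98 on the log2(FPKM + 1) scale, although its mean FPKM fell by 2.23-fold. The Pgam1 call between Baso and Poly (log2 fold change 0.37, limma adjusted p = 0.0247) was lost when any of the 6 Baso and Poly libraries was left out (adjusted p 0.0509 to 0.0764).

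Libraries of Baso, Poly and Ortho with the same replicate number deviated together. When these stages alone were fitted with a block for the replicate number, the enzymes past the threshold between Baso and Poly went from 4 to 9, where the share of all genes went from 12.4% to 22.0%, adding small rises of Bpgm (limma adjusted p = 0.0287), Pkm (0.0128), Aldoa (0.00587), Ldha (0.0182) and Hk2 (0.0442). A fit of Baso and Poly alone, without a block, passed 6 enzymes and 11.8% of all genes. The block over all libraries passed 5 enzymes and 1894 of the 12994 genes. In the blocked fit of these stages Pklr also fell between Poly and Ortho (log2 fold change -0.47, adjusted p = 0.0177), but not with the block over all libraries (adjusted p = 0.0528) or without a block (0.119).

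**Figure D4:**
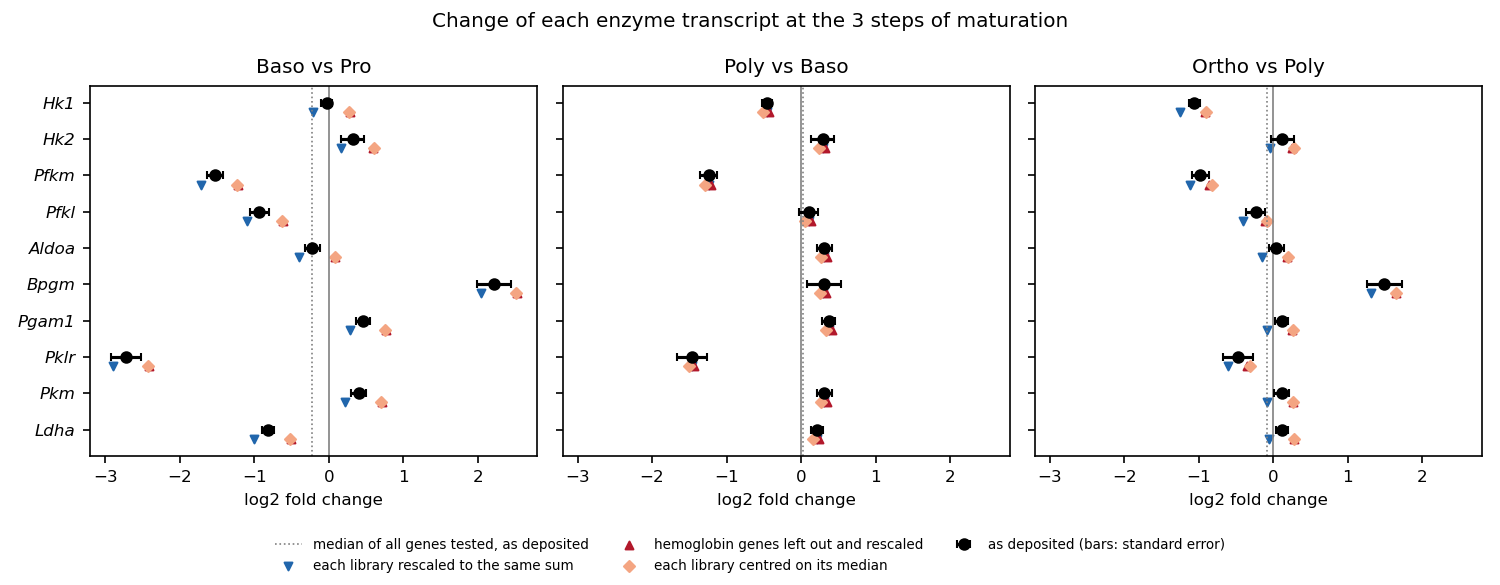
Log2 fold change of each enzyme gene (horizontal axis) at the 3 steps of maturation. Black points are values as deposited with standard errors, coloured symbols the values under the 3 other scalings, and the dotted line is the median of all genes tested. The first step holds the largest falls, of Pklr (-2.72) and Pfkm (-1.53), the last step the second rise of Bpgm (1.49), and symbols lie on both sides of 0 for Aldoa and Hk1 at the first step and for Aldoa, Pkm, Pgam1, Ldha and Hk2 at the last.

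The neighbours of these enzymes were read from lists, beside 22.7% of all genes higher and 53.2% lower in Ortho than in Pro as deposited, 14.7% and 63.4% with equal sums, 34.3% and 34.8% without hemoglobin genes and 34.5% and 35.5% when centred. Of 13 other glycolysis genes tested, 5 were higher and 2 lower in Ortho as deposited, 3 and 4 with equal sums, and 8 and 2 without hemoglobin genes. Gpi1, which isomerises glucose 6-phosphate, rose from 123 ± 44.9 to 251 ± 21.6 FPKM (SD, n = 3; log2 fold change 1.08, SE 0.19, limma adjusted p = 0.000315, positive under every scaling), with the neutrophil markers moving as given above. Gapdh and Eno1 act between aldolase and pyruvate kinase, and the sign of each depended on the scaling. Gapdh was at -0.11 on the log2 scale as deposited (limma adjusted p = 0.584), -0.48 with equal sums (adjusted p = 0.0205) and 0.38 without hemoglobin genes (adjusted p = 0.0564). Eno1 was at 0.12 as deposited (adjusted p = 0.209) but past the threshold in opposite directions otherwise, at -0.24 with equal sums (adjusted p = 0.0416), 0.61 without hemoglobin genes (adjusted p = 7.72e-05) and 0.52 when centred (adjusted p = 0.000131). Of the 6 genes of fructose 2,6-bisphosphate and BPG turnover, 3 were higher and 3 lower, and apart from Minpp1 they stayed low. Pfkfb2 and Pfkfb4, which make and break the activator of phosphofructokinase, were at 9.48 and 11.9 FPKM in Ortho, with log2 fold changes from Pro of -0.27 and 0.37 whose calls were lost or turned under other scalings.

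Slc2a4, Bsg and Slc16a1, the most abundant of the glucose and lactate transport list, had their highest means in Baso or Poly. Slc2a4, an insulin-responsive glucose transporter, was at 11.8 ± 3.37 FPKM in Pro and 31.9 ± 1.99 in Baso, stood highest at 36.1 ± 0.949 in Poly and was back at 10.1 ± 1.55 in Ortho (SD, n = 3). The log2 fold change was 1.39 at the first step and -1.76 at the last (SE 0.16 each, limma adjusted p = 2.78e-05 and 6.33e-06). Bsg, the chaperone of lactate transporters, was at 346, 449, 429 and 217 FPKM in the stage means, and Slc16a1, a lactate transporter, at 86.9, 116, 111 and 95.9. Of 7 transport genes tested 6 were higher in Poly than in Pro and none lower, beside 23.3% and 42.7% of all genes, but with equal sums 2 were higher and none lower, beside 17.6% of all genes higher. In Ortho 3 were higher and 1 lower, 1 and 3 with equal sums, and 5 and 0 without hemoglobin genes.

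Of 13 genes tested for the entry of pyruvate into mitochondria, 10 were lower and 1 higher in Ortho than in Pro, where 53.2% of all genes were lower and 22.7% higher. Without hemoglobin genes 7 were lower and 2 higher, beside 34.8% and 34.3% of all genes. Pdhb, an E1 gene of pyruvate dehydrogenase, Dlat (E2), Dld (E3) and Pdhx, which binds E3, had log2 fold changes of -1.22, -1.12, -1.25 and -1.45. Pdk1 and Pdk3, kinases that switch the complex off, were at -1.55 and -1.31 (limma adjusted p 8.61e-07 or lower in each of the 6). All 6 were lower under every scaling. Pdha1, another E1 gene, was at -0.85 (limma adjusted p = 8.17e-07), short of a 2-fold change. Mpc2, of the mitochondrial pyruvate carrier, rose by 0.57 on the log2 scale and was higher under every scaling. In the pentose phosphate pathway 3 of 8 were higher and 2 lower as deposited, and with equal sums 0 and 5. Both without hemoglobin genes and when centred, 4 were higher and 2 lower. Rpia, ribose 5-phosphate isomerase, fell from 109 ± 17.9 to 25.8 ± 1.24 FPKM (SD, n = 3; log2 fold change -2.03, SE 0.11, limma adjusted p = 3.42e-08), and Tkt, transketolase, fell from 278 to 164. Pgd, the second dehydrogenase, rose by 0.49 on the log2 scale (0.12 and not past the threshold with equal sums), and Taldo1, transaldolase, changed by 0.03 (adjusted p = 0.732). Of 4 gluconeogenesis genes tested, Pck2, the mitochondrial PEP carboxykinase, was lower in Ortho (-1.32), Pcx was higher (0.29, but -0.05 with equal sums), and G6pc3 was at -0.18 (adjusted p = 0.431).

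Of 5 regulators tested, 3 were lower and 1 higher in Ortho as deposited, 4 and 0 with equal sums, 2 and 2 without hemoglobin genes and 2 and 1 when centred, beside 53.2% of all genes lower and 22.7% higher as deposited. Klf1 and Gata1, erythroid transcription factors, had means of 319.8 and 131 FPKM in Pro, 339.6 and 128 at Baso, 292 and 100.1 at Poly and 69.3 and 30.9 at Ortho. Their main fall, by 2.06 and 1.67 on the log2 scale, lay between Poly and Ortho (limma adjusted p = 2.46e-08 and 9.28e-08). Pklr and Pfkm had their largest fall between Pro and Baso. Whether these factors act on Pklr or Pfkm in these cells was not tested. Myc had a log2 fold change of -0.61 in Ortho against Pro (adjusted p = 0.0227; -0.14 without hemoglobin genes, adjusted p = 0.591).

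**Figure D5:**
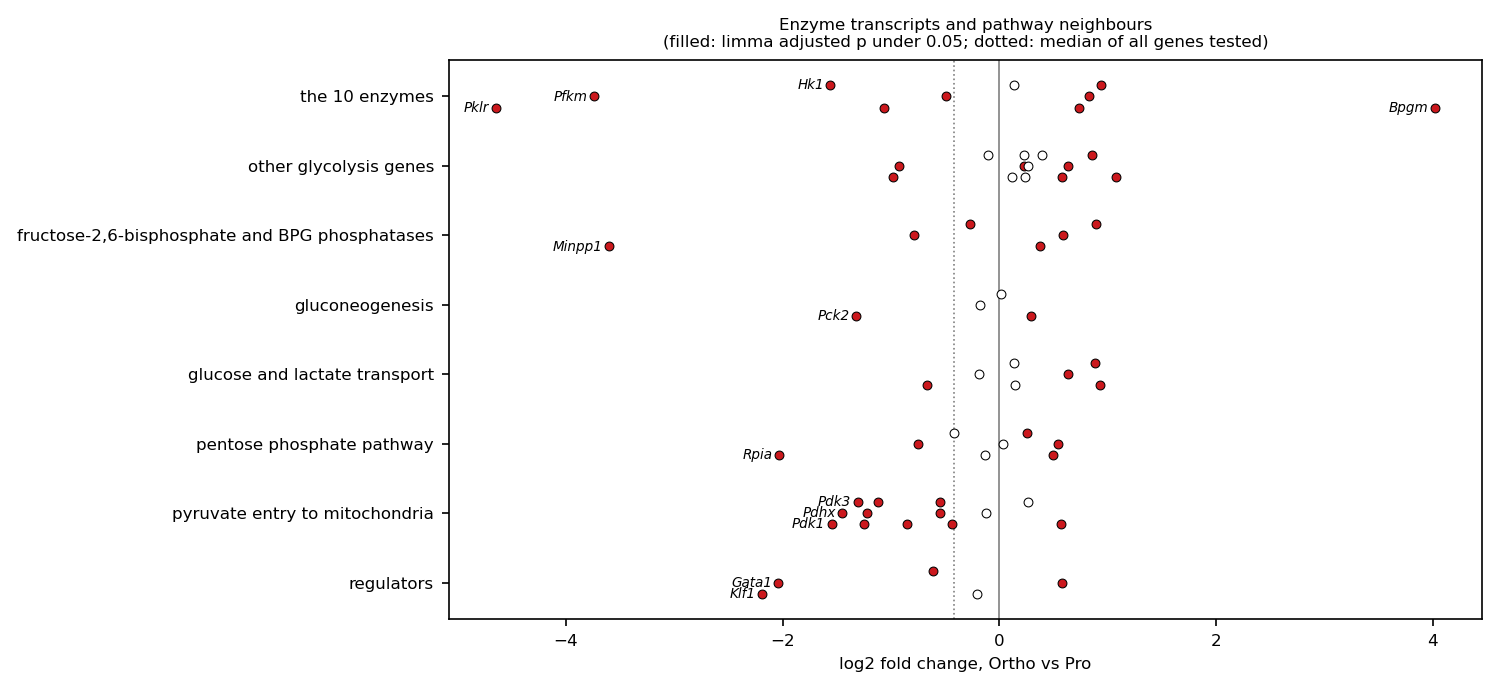
Log2 fold change in Ortho against Pro (horizontal axis) of the 10 enzymes and of each tested gene of the neighbouring lists, 1 point a gene; filled points had a limma adjusted p under 0.05, and the dotted line is the median of all genes tested (-0.42). Genes beyond 1.3 in size are named. Pklr, Pfkm and Minpp1 lie farthest to the left and Bpgm alone far to the right, while most pyruvate entry genes lie left of 0.

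The genes whose pattern over the 12 libraries was most like that of the extremes were found among 6011 genes with a mean of at least 10 FPKM. For Pklr they were C1qtnf12 (Pearson r 0.997), Selenbp1 (0.996), Rpl13a (0.995), Rps26 (0.994) and Acsl5 (0.994). C1qtnf12 went from 339 FPKM in Pro to 16.0 in Ortho, and the ribosomal protein gene Rpl13a from 1592 to 572. For Bpgm they were Fam220a (0.995), Rnf11 (0.988), Adipor1 (0.985), Fam46c (0.984) and Bcl2l1 (0.982), the last the gene of the survival protein Bcl-xL, at 12.7 FPKM in Pro and 148 in Ortho. All share the libraries, their scaling and the 4 stages, so a high r describes only a like course of the log2(FPKM + 1) levels.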

How the data were processed

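RNA-seq was analysed from 12 libraries, 3 each of Pro, Baso, Poly and Ortho. Per the labels and the paper's methods, the authors trimmed reads (cutadapt, Trimmomatic), aligned them to mm10 (HISAT2, SAMtools), counted them per gene (featureCounts) and deposited FPKM per gene and library. Versions, annotation release and strand setting are not given in the sources used here. The labels describe Trizol and NEBNext, the methods other kits. Ortho replicates 2 and 3 carry a general erythroblast label and were assigned by title. The authors tested counts with DESeq2, which was not repeated on FPKM.

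One repeated identifier line was dropped. Genes with at least 1 FPKM in at least 3 libraries were tested on the log2(FPKM + 1) scale, pseudocount 1, by limma (version 3.58.1, under R 4.3.3), with variance trend and all libraries in 1 model. P-values were two-sided and Benjamini-Hochberg adjusted over all 12994 genes, in each of 5 comparisons. The 5 comparisons share libraries. Within-library ratios were tested by exact permutation of the F statistic. Both tests were tested on simulated data. Depth is unknown (no steps of whole fragments among 1819 low genes), so precision is the spread between libraries. Deviations from stage means correlated at 0.156 to 0.319 between same-numbered libraries of Baso, Poly and Ortho and at 0.00524 to 0.0968 with Pro. The numbers thus pair the first set, on the values alone, and blocked fits are given for it. Positions are from GENCODE M21, promoters from RefSeq.

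The members and lists were chosen with earlier results of these data known. Neighbouring genes were named when among the 3 most abundant of their list or changed 2-fold in Ortho against Pro. Alternatives were pseudocounts of 0.1 and 5, no filter, a mean of at least 5 FPKM, 3 scalings, no trend, only the 2 stages compared, replicate blocks and leaving out each library. Protein sequences were not used here.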

Additional observations from a re-analysis of the deposited data

How the results depend on the processing

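Of 280 counts and ratios recomputed under the alternatives, 271 stayed within 1.5 times or on the same side of the threshold. The exceptions were in Poly against Baso and in Ortho against Poly. In the former, 963 genes passed without the filter and 2863 with the replicate block of Baso, Poly and Ortho (1605 without either). In that block 9 enzymes were past the threshold. In Ortho against Poly with equal sums 5 enzymes were, where 2.69% of all genes were higher and 32.3% lower. Leaving out 1 library gave 570 to 1985 genes in Poly against Baso. The block over all libraries took Pkm in Poly against Baso (limma adjusted p = 0.04) and Hk2 in Baso against Pro (limma adjusted p = 0.0242) past the threshold and changed no other enzyme's call. Permuting within replicate numbers as blocks, the exact permutation p of the ratios was 0.00174 to 0.00521. Directions turned, as log2 fold changes, with equal sums in Ortho against Poly for Pkm (-0.08), Pgam1 (-0.08), Ldha (-0.06), Hk2 (-0.05) and Aldoa (-0.15), and for Aldoa in Poly (-0.09) and Ortho (-0.23) against Pro. Without hemoglobin genes they turned for Aldoa (0.09) and Hk1 (0.28) in Baso and Ldha (0.00) in Ortho against Pro, and with centring for Aldoa (0.08) and Hk1 (0.27) in Baso. Leaving out 1 library also turned Aldoa in Poly against Pro (range -0.02, without Pro replicate 2, to 0.23), Hk1 in Baso against Pro (-0.09 to 0.04, without Pro replicate 1) and Pfkl in Poly against Baso (-0.03, without Poly replicate 1, to 0.20), none of them past the threshold when turned. The direction and call of Bpgm, Pklr, Pfkm and Hk1 in Ortho against Pro held under every alternative run. Those of Pfkl, Pkm, Pgam1 and Hk2 in Ortho against Pro also held under the 3 scalings, the block over all libraries and leaving out each library. Among these Hk2 came nearest the threshold, with equal sums (limma adjusted p = 0.0409). The cause of the other changes was not tested.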
